A study of Mus musculus with 10 samples.

Results

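The miRNAs described here are those cut from the Mir126a, Mir126b, Mir221 and Mir222 precursors, the endothelial miR-126 arms and the miR-221/222 pair. They were found by name in the deposited table, which gave 7 rows of 733: mmu-miR-126a-3p, mmu-miR-126a-5p, mmu-miR-126b-3p, mmu-miR-221-3p, mmu-miR-221-5p, mmu-miR-222-3p and mmu-miR-222-5p, written without the species prefix from here on. The table holds small RNA counts of small extracellular vesicles, membrane particles released by cells, that were prepared by collagenase digestion and ultracentrifugation of mouse heart. The 5 libraries labelled HFD plus L-NAME came from male C57BL/6J mice that were 8 weeks old at the start and received for 12 weeks a diet with 60% fat and, in the drinking water, 0.5 g/L of L-NAME, which blocks nitric oxide synthase. They are called the model group here, since the regimen is used to induce a heart failure state in which the ejection fraction is preserved. The 5 control libraries came from male mice on chow, for which no start age or time on the diet was found. The labels record no transgene, deletion or other agent for either group and do not say whether each library is a separate mouse. The title of the series speaks of vesicles from cardiomyocytes, whereas the protocol in the labels digests whole heart tissue, so vesicles of endothelial and blood cells can be present.

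In the vertebrate heart, miR-126 is made mainly by endothelial cells, because its precursor lies within Egfl7, a gene for a secreted protein of vessels. The 3p arm is known to repress Spred1 and Pik3r2, inhibitors of growth factor signalling in endothelial cells, and the 5p arm is known in mouse endothelium to repress the Notch ligand gene Dlk1. The miR-221/222 pair is made in endothelial, smooth muscle and other cells, and is known in human endothelial cells to repress KIT, the receptor of stem cell factor, and in several human cell types the cell cycle inhibitor gene CDKN1B. Platelets also carry miR-126.

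RefSeq on GRCm38.p6 held a mature sequence for 5 of the 7 rows, and none for miR-126a-5p or miR-222-5p. Of those held, all but miR-221-5p are shown, because the seed, bases 2 to 8, largely sets which mRNAs a miRNA pairs with. They are written from the 5′ end, with the seed in capitals.
miR-126a-3p: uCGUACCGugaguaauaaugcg
miR-221-3p: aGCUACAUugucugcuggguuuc
miR-222-3p: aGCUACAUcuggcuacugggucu
miR-126b-3p: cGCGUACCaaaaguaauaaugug
The seed of miR-126a-3p was found in 0 other mature mouse miRNAs of the 1679 in the RefSeq table. The pair miR-221-3p and miR-222-3p is identical over the first 8 bases and at 11 of 23 positions in all. The only further carrier of their seed was miR-1928, which had no row in the deposited counts.

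The precursors show how the arms lie. In the following hairpins, from RefSeq on GRCm38.p6, capitals mark the mature arms listed there, and the 5p arm of Mir126a is cut from the lower-case stretch before the loop.
Mir126a: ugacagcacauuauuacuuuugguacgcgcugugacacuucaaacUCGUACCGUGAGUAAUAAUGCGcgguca
Mir221: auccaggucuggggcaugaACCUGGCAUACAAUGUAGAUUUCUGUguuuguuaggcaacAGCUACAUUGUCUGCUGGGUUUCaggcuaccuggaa
Mir222: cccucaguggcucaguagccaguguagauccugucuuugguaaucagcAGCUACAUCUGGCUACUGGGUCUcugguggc
Mir126a lies on chromosome 2, 26591357 to 26591429 (GRCm38, plus strand), within introns of the protein-coding transcripts of Egfl7 on the same strand and within an exon of a retained-intron transcript of that gene (GENCODE M21). Mir126b, at 26591363 to 26591420, is annotated on the opposite strand of the same bases, so that all 58 bases of its hairpin are the reverse complement of Mir126a. Mir221 (19146294 to 19146388) and Mir222 (19146893 to 19146971) lie on the minus strand of chromosome X, 504 bases apart, and neither overlaps another annotated gene.

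Each library held 238434 to 420828 miRNA counts. Levels are given as CPM, miRNA counts scaled to library totals after TMM normalization (a factor per library from edgeR). Differences are log2 values of the model group minus control from edgeR's quasi-likelihood test over 177 miRNAs that passed its expression filter, with Benjamini-Hochberg adjustment over all of them and a threshold of 0.05. Of the 7 rows, 4 passed the filter: miR-126a-3p, miR-126a-5p, miR-221-3p and miR-222-3p. Heart muscle miRNAs were present as the tissue label says: 4 of 5 cardiomyocyte markers had a count in every library, and the 5 together held 246832 to 359449 CPM in control and 292889 to 474080 CPM in the model group. The table measures miRNAs alone, so endothelial origin is background knowledge and was not measured. In vesicles of whole tissue, fewer vesicles of a cell type and less of a miRNA per vesicle cannot be told apart.

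The members spanned more than 3 orders of magnitude. In 10 of 10 libraries the order of counts was miR-126a-3p, miR-126a-5p, miR-221-3p, miR-222-3p, and the ranges of neighbours in this order did not overlap. Adaptor ligation captures sequences unequally, so this is an order of counts and not of molecules. The miR-126a-3p arm ranked 2 to 4 among all miRNAs in every library, while miR-222-3p ranked 130 to 204.

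The dominant arm, miR-126a-3p, had 64023, 60372, 82914, 69967 and 70687 CPM in control replicates 1 to 5. In the model group it had 49974, 71492, 65474, 52816 and 38358 CPM. Model libraries 1, 4 and 5 lay below every control library, and libraries 2 and 3 lay within the control range, so the groups overlapped. The means were 69593 ± 8585 CPM in control and 55623 ± 13103 CPM in the model group (SD, n = 5 each), a log2 difference of -0.32 ± 0.18 (SE) with an edgeR adjusted p of 0.398. As a share of all miRNA counts it took 6.97% ± 0.636 in control and 5.499% ± 1.20 in the model group (SD, n = 5).

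The minor arm, miR-126a-5p, had 2470, 1182, 1714, 1162 and 1736 CPM in control replicates 1 to 5. In the model group it had 2062, 1984, 1818, 2943 and 2095 CPM. Every model library lay above 4 of the 5 control libraries, and control 1 lay above 4 of the 5 model libraries. The means were 1653 ± 534 CPM and 2180 ± 440 CPM (SD, n = 5 each), a log2 difference of 0.40 ± 0.23 with an edgeR adjusted p of 0.398. Without control 1 the difference was 0.59 and the edgeR adjusted p 0.162. Both arms come from one precursor, yet their values pointed in opposite directions.

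On the X chromosome, miR-221-3p had 330, 162, 378, 291 and 244 CPM in control replicates 1 to 5 and 233, 301, 330, 316 and 174 CPM in those of the model group. The model libraries all lay within the control range. The means were 281 ± 82.8 CPM and 271 ± 65.7 CPM (SD, n = 5 each), and the log2 difference was -0.05 ± 0.27 (edgeR adjusted p = 0.941), with a sign that changed between settings.

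The least abundant tested member, miR-222-3p, had counts of 14, 25, 14, 24 and 23 in control replicates 1 to 5 and of 6, 10, 22, 10 and 5 in those of the model group. After normalization these were 32.7, 60.5, 49.99, 66.4 and 93.5 CPM in control and 20.5, 40.7, 72.6, 30.4 and 20.3 CPM in the model group. Model libraries 1, 4 and 5 lay below every control library, as they did for miR-126a-3p, and library 3 lay above 4 of the 5 control libraries. The means were 60.6 ± 22.4 CPM and 36.9 ± 21.6 CPM (SD, n = 5 each), a log2 difference of -0.69 ± 0.42 with an edgeR adjusted p of 0.426. Depth limits this member: the 5 counts of model 5 were 0.00199% of its miRNA counts, with an exact 95% binomial interval of 0.000647% to 0.00465%, which covers counting error only. Without model 3 the difference was -1.10 (edgeR adjusted p = 0.187).

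**Figure D1:**
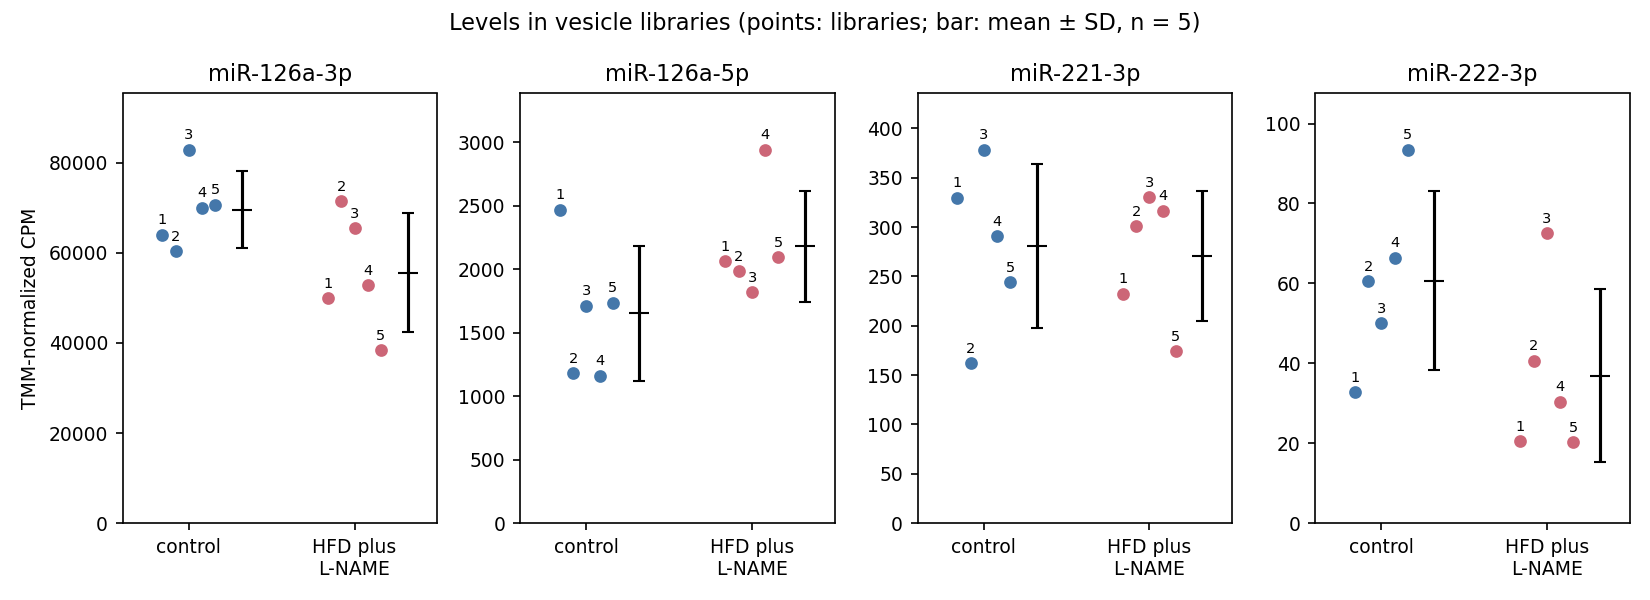
TMM-normalized CPM (y axis, from 0, a scale of its own in each panel) of miR-126a-3p, miR-126a-5p, miR-221-3p and miR-222-3p in the control and model (HFD plus L-NAME) libraries. Numbered points are replicates and the bar is the mean ± SD (n = 5); model libraries 1, 4 and 5 lie below every control library for miR-126a-3p and for miR-222-3p, and the groups overlap in every panel.

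Over all miRNAs, edgeR called 0 of 177 (0%). An unadjusted p under 0.05 was found for 28 of them (15.8%) and for 0 of the 4 tested members. In 7 of the 177 (3.95%) the groups did not overlap in CPM, and in 0 of the 4 members. DESeq2's Wald test on the same miRNAs called 3, miR-23a-3p with miR-125b-5p and miR-499-5p, all at lower values, and limma with trend called 0 (29 and 25 at an unadjusted p under 0.05), with no member among the calls. The median log2 difference over all miRNAs tested was -0.02, with 86 higher and 91 lower values.

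The remaining rows were at the limit of detection. The antisense product miR-126b-3p had 1 count in each of 3 control libraries and 0 counts in the other 7 libraries, where a count of 0 allows 7.52 to 12.6 CPM before TMM scaling. The sense arm miR-126a-5p, whose precursor covers the same bases, held 2871 counts in control and 3126 in the model group in all. The passenger arms miR-221-5p and miR-222-5p had at most 2 and 3 counts in any library, with sums of 3 and 6 in control and 2 and 4 in the model group. No difference could be detected for these 3 rows at this depth.

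A ratio of 2 counts from the same library needs no scaling between libraries. For every 100 counts of miR-126a-3p there were 3.86, 1.96, 2.07, 1.66 and 2.46 counts of miR-126a-5p in control replicates 1 to 5. In the model group there were 4.13, 2.77, 2.78, 5.57 and 5.46. Every model library exceeded 4 of the 5 control libraries, and 3 of them exceeded control 1 as well.

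On the log2 scale, with 0.5 added to each count, the 5p to 3p ratio of miR-126a was -5.44 ± 0.46 in control and -4.66 ± 0.50 in the model group (SD, n = 5 each). The difference of 0.78, a 1.72-fold higher ratio in the model group, had an exact two-sided permutation p of 0.0397, which became 0.0595 after Benjamini-Hochberg adjustment over the 3 ratios tested (the smallest exact p that 5 against 5 allows is 0.00794). It thus did not pass the threshold with all libraries. When the ratio to miR-1a-3p was left out of the adjustment, a choice made with the data already seen, the exact adjusted p over the other 2 ratios was 0.0794. Leaving out control 1, model 2 or model 3 gave differences of 0.97, 0.91 and 0.91, each at an exact adjusted p of 0.0476 over the 3 ratios, and leaving out any other library gave 0.0952 or 0.119. Over the 2 ratios, the exact adjusted p was 0.0317 without control 1 and 0.0635 without model 2 or model 3.

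The same ratio was set beside that of the other precursors. Of the precursor names with both arms in the table, 21 had a mean of at least 10 counts in each arm, and limma fitted the log2 ratio of all 21 at once. By this test 0 of 21 (0%) passed the adjusted threshold and 3 (14.3%) had an unadjusted p under 0.05. These were miR-126a, with a difference of 0.78 and a 95% interval of 0.08 to 1.49, miR-208a, a miRNA of a heart myosin intron (-0.86, from -1.65 to -0.08), and miR-30e (0.81, from 0.004 to 1.61), each at an adjusted p of 0.265 by limma. With a library left out, the number at an unadjusted p under 0.05 ranged from 0, without control 2, control 4, model 1 or model 4, to 4, and the unadjusted limma p of miR-126a from 0.00878 to 0.0772.

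Of the 21 precursors, 14 had a higher and 7 a lower 5p to 3p ratio in the model group, with a median difference of 0.15. The precursor of miR-126a had the smallest p and ranked 6 by size. In 0 of the 21 (0%) did the groups lie apart. With edgeR's diffSpliceDGE, which tests the arms as counts, miR-126a differed by 0.72 (adjusted p = 0.0855) and 0 of 21 passed, while 5 had an unadjusted p under 0.05.

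**Figure D2:**
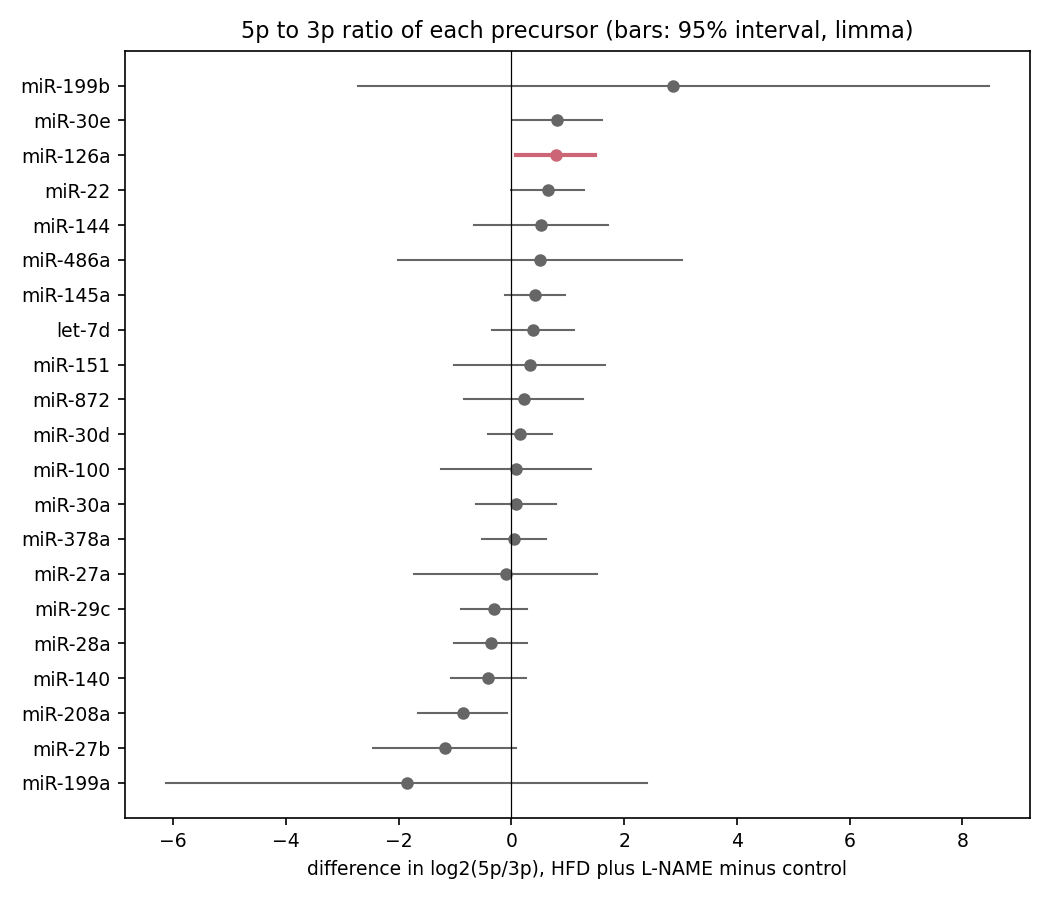
Difference in log2(5p/3p) between the model group and control (x axis, log2 units) for the 21 precursors with both arms counted (y axis), from limma. Points are differences and lines 95% intervals; miR-126a, in red, lies at 0.78, between miR-22 at 0.64 and miR-30e at 0.81, and the widest lines are those of miR-199b and miR-199a, whose control log2 ratios had SDs of 4.44 and 3.57.

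The miR-221-3p to miR-222-3p ratio compares 2 miRNAs of one cluster with one seed. There were 10.1, 2.68, 7.57, 4.38 and 2.61 counts of miR-221-3p for each of miR-222-3p in control replicates 1 to 5. In the model group there were 11.3, 7.40, 4.55, 10.4 and 8.60. The lowest ratios were those of control 2 and control 5 and the highest was that of model 1, and the groups overlapped. The log2 ratio was 2.21 ± 0.86 in control and 2.94 ± 0.49 in the model group (SD, n = 5 each), a difference of 0.73 with an exact permutation p of 0.119 (adjusted 0.119). With a library left out, that exact adjusted p ran from 0.0476, without control 1, to 0.238, without control 2 or control 5, and with 5 added to each count it was 0.262. The denominators of 5 to 25 counts limit this ratio.

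As a seed family, miR-221-3p and miR-222-3p together held 342 ± 74.8 CPM in control and 308 ± 82.9 CPM in the model group (SD, n = 5 each). The member miR-221-3p made up 72.3% to 91.0% of the pair in control and 82.0% to 91.9% in the model group.

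The ratio of the endothelial guide strand miR-126a-3p to a muscle miRNA had a lower or a higher mean in the model group depending on the muscle miRNA. It was tested against miR-1a-3p, the most abundant one in these vesicles. For each count of miR-1a-3p there were 0.321, 0.199, 0.270, 0.320 and 0.346 counts of miR-126a-3p in control replicates 1 to 5. In the model group there were 0.179, 0.176, 0.254, 0.156 and 0.0864. Model libraries 1, 2, 4 and 5 lay below every control library, and library 3 lay above control 2.

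The log2 ratio was -1.81 ± 0.32 in control and -2.63 ± 0.57 in the model group (SD, n = 5 each). The difference was -0.83, a ratio 1.78-fold lower in the model group, with an exact permutation p of 0.0159 (adjusted 0.0476). The reference was chosen with its values known, and miR-1a-3p itself had 246670 ± 54305 CPM in control and 344900 ± 79830 CPM in the model group, so this p is given as a description and is not independent support for a change in miR-126a-3p. With control 3, 4 or 5 or model 1, 4 or 5 left out, the exact adjusted p was 0.0952. The differences were then -0.85, -0.79, -0.76, -0.87, -0.82 and -0.60, and the exact p was 0.0317 in each, where 4 against 5 libraries allow 0.0159 at the smallest.

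The other cardiomyocyte markers tested, named after their values were seen and compared without a test, gave different values. The log2 ratio of miR-126a-3p to miR-499-5p was 1.000 ± 0.15 in control and 1.25 ± 0.33 in the model group (SD, n = 5 each). To miR-133a-3p it was 2.81 ± 0.24 and 2.68 ± 0.64. To miR-208a-3p it was 6.14 ± 0.48 and 5.09 ± 0.47. The edgeR log2 difference of the references themselves was 0.48 for miR-1a-3p, 0.63 for miR-208a-3p, -0.19 for miR-133a-3p and -0.60 for miR-499-5p, and edgeR called none of them (adjusted p between 0.172 and 0.791).

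**Figure D3:**
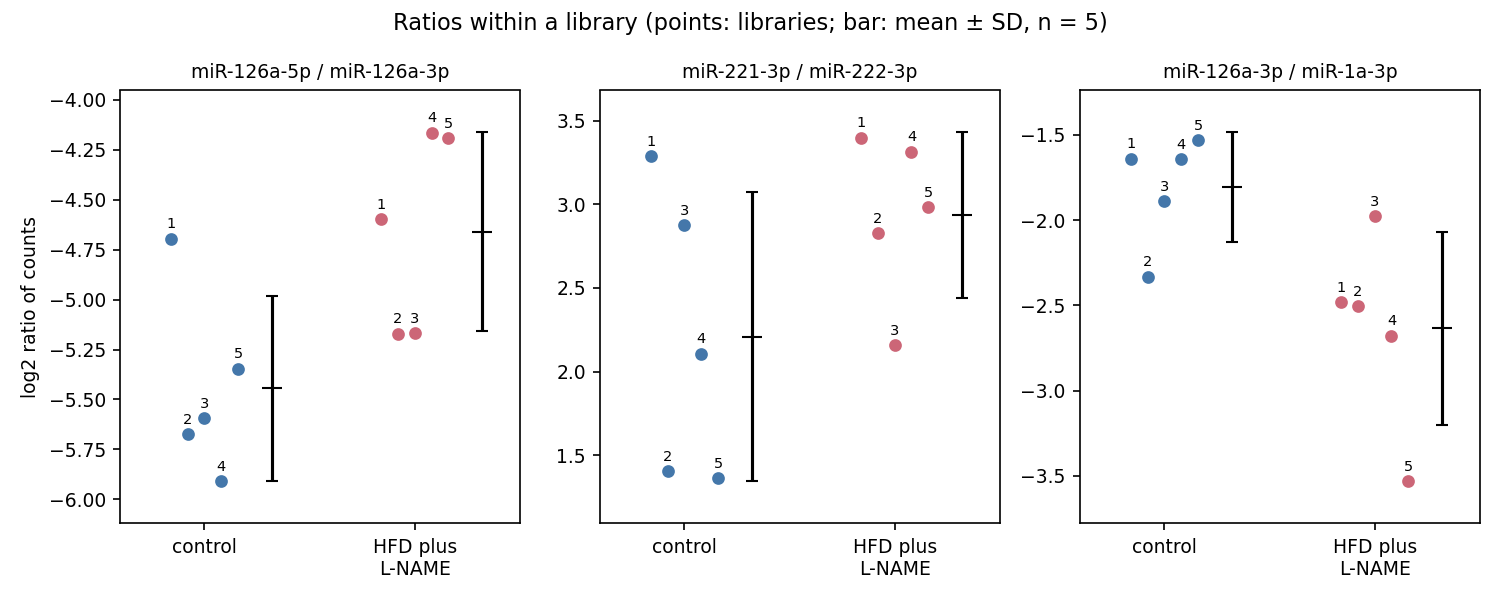
Log2 ratio of counts within each library (y axis, a scale of its own in each panel) for miR-126a-5p to miR-126a-3p, miR-221-3p to miR-222-3p and miR-126a-3p to miR-1a-3p. Numbered points are replicates and bars the mean ± SD (n = 5); control 1 lies among the model libraries in the first panel, and model 5, at -3.53, is the lowest in the third.

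Against the most abundant marker of other cells, also without a test, the sign of the difference varied and several differences were smaller than the SDs. The log2 ratio of miR-126a-3p to miR-143-3p, of smooth muscle, was 0.54 ± 0.33 in control and 0.73 ± 0.18 in the model group (SD, n = 5 each), and that to miR-451a, of red blood cells, 1.22 ± 0.91 and 1.74 ± 0.47. To miR-223-3p, of platelets and myeloid cells, it was 7.93 ± 0.52 and 7.83 ± 0.82. To miR-150-5p, of lymphocytes, it was 7.02 ± 0.63 and 7.61 ± 0.60, and to miR-199a-3p, of fibroblasts, 6.61 ± 3.42 and 4.43 ± 2.44.

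The ranges of marker miRNAs of other cells, given without a test, overlapped between the groups except for those of smooth muscle. The smooth muscle markers summed to 42539 to 65483 CPM in control and 29556 to 40854 CPM in the model group, and the red blood cell markers to 17835 to 54126 CPM and 9312 to 26170 CPM. Fibroblast markers summed to 194 to 4729 CPM in control and 397 to 10241 CPM in the model group, and leukocyte markers to 615 to 1085 CPM and 520 to 721 CPM. The single platelet and myeloid marker, miR-223-3p, had 187 to 421 CPM in control and 149 to 330 CPM in the model group. These sums follow their most abundant members, and each list but the single marker held members of both signs. By edgeR the log2 difference was -0.54 for miR-143-3p and 0.18 for miR-145a-5p, and -1.007 for miR-150-5p and 0.44 for miR-155-5p. Of the red blood cell markers 4 were lower, miR-451a at -0.97, miR-486b-5p at -1.30, miR-144-3p at -0.14 and miR-144-5p at -0.016. Only 1 was higher, miR-486a-5p at 0.51, with an SE of 0.94 that exceeds the difference. Of the fibroblast markers 2 were higher, miR-199a-3p at 1.006 ± 1.39 (SE) and miR-214-3p at 1.09 ± 0.33, and miR-199a-5p was at -0.13 ± 0.41. The dominant miR-199a-3p varied widely, with 2462 ± 2256 CPM in control and 4941 ± 3528 CPM in the model group (SD, n = 5 each). EdgeR called none of these markers, and those not the most abundant of their list were named after their values were seen. Both smooth muscle markers and 5 of 5 red blood cell markers had counts in every library, and 0 of the markers of these lists was at 0 in all libraries. The liver marker miR-122-5p, with 130 counts in all, did not pass the filter. It lay between 0 and 335 CPM in control, where its SD of 147 CPM exceeded its mean of 71.7 CPM, and between 0 and 6.09 CPM in the model group. The neuron markers lay between 10.7 and 47.0 CPM in control and between 27.4 and 52.8 CPM in the model group. The part of these other cells in the values of miR-126a and miR-221/222 was not tested.

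Scaling moved the members together. With the read totals that the other deposited value implies, which count all reads in place of miRNA reads if that value is RPM, the median of all miRNAs shifted to -0.37. On that scale miR-126a-3p stood at -0.67, miR-222-3p at -1.01, miR-221-3p at -0.39 and miR-126a-5p at 0.05 (edgeR adjusted p between 0.140 and 0.956). Relative to that median, miR-126a-3p was at -0.30, miR-222-3p at -0.64, miR-221-3p at -0.03 and miR-126a-5p at 0.42. In assumed RPM, miR-126a-3p held 1050 ± 205 in control and 660 ± 164 in the model group, and the miRNA share of the implied reads was 0.980% to 1.85% in control and 1.010% to 1.55% in the model group.

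**Figure D4:**
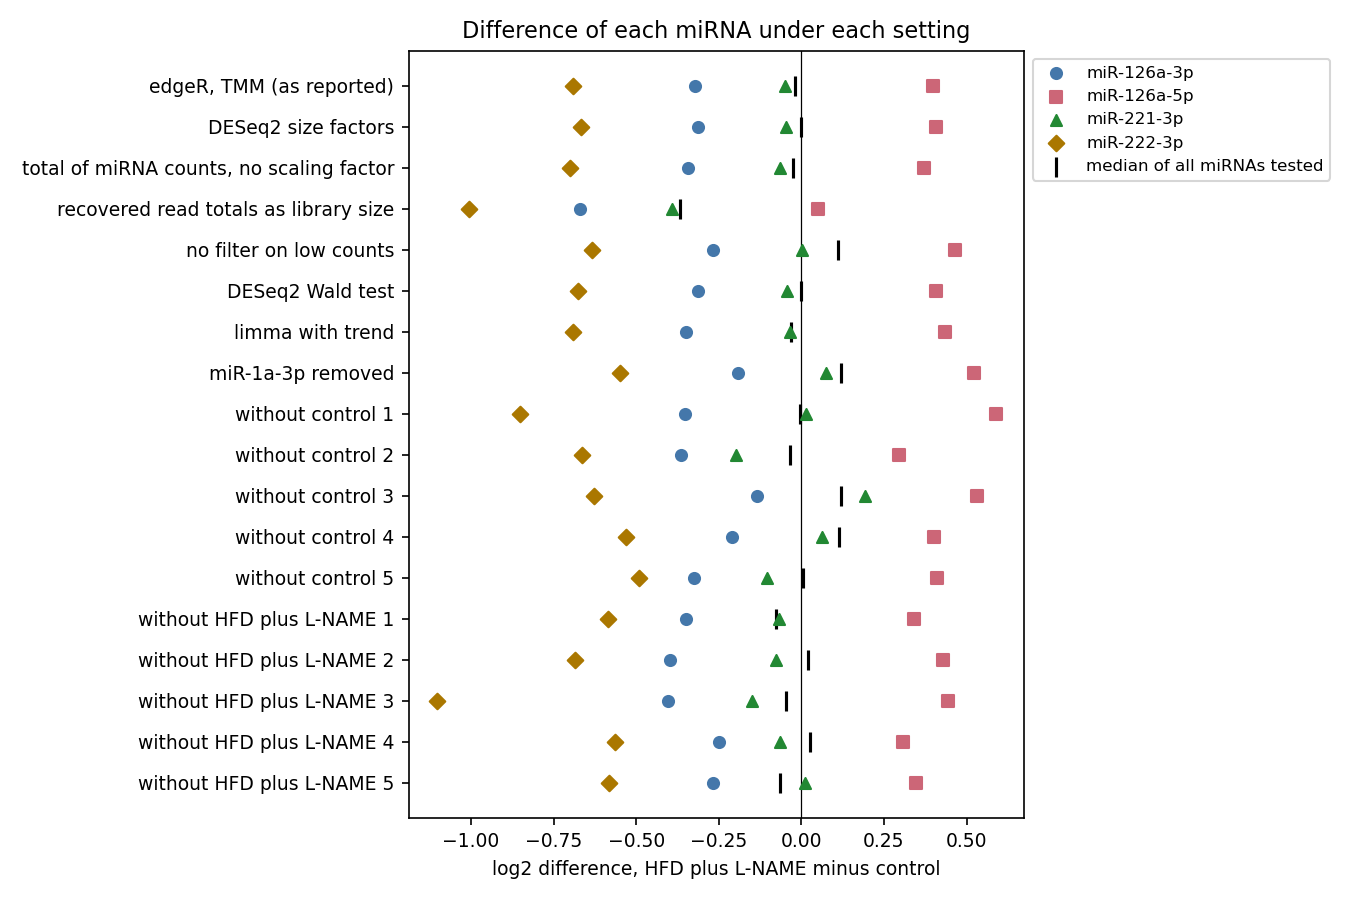
Log2 difference between the model group and control (x axis) of the 4 tested members under each normalization, tool and left-out library (y axis), with the median of all miRNAs tested as a black bar. The value of miR-126a-5p lies above 0 and those of miR-126a-3p and miR-222-3p below 0 in every line, while miR-221-3p changes sign, and recovered read totals shift the median to -0.37.

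A list of 24 other miRNAs with reported roles in endothelial cells or vessel growth gave the surroundings of the members. Of these, 23 had a row and 17 were tested, 6 with higher and 11 with lower values, and 0 passed by edgeR. The median was -0.09, beside -0.02 over all miRNAs. Among the higher ones was miR-155-5p, which also stands in the list of leukocyte markers. Unadjusted p under 0.05 were found for 3 of the 17, beside 15.8% of all miRNAs tested: miR-23a-3p (-0.44 ± 0.14) and, named after their values were seen, miR-92a-3p (-0.96 ± 0.31) and miR-29a-3p (0.56 ± 0.21), with edgeR adjusted p of 0.172, 0.172 and 0.204. DESeq2's Wald test called miR-23a-3p alone of this list (adjusted p = 0.0466). In endothelial cells miR-92a-3p is known as an inhibitor of vessel growth. The most abundant others were miR-27b-3p at 0.06 ± 0.20, miR-34a-5p at -0.32 ± 0.20 and miR-23b-3p at -0.09 ± 0.17.

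The miRNAs most like each member were sought as those whose log2 ratio to it varied least over the 10 libraries, among 156 other named miRNAs tested. For miR-126a-3p these were let-7d-5p, miR-34a-5p and miR-23a-3p (SD of the log2 ratio 0.22, 0.22 and 0.23, where the median of the 156 was 0.56). For miR-126a-5p they were miR-30b-5p, miR-24-3p and miR-490-5p (0.27, 0.28 and 0.28). The SD between the arms of miR-126a was 0.61, near the median distance from either arm (0.56 and 0.62). From the 3p arm, 92 of the 156 miRNAs lay closer than its own 5p arm, and from the 5p arm 77 lay closer than the 3p arm.

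For miR-221-3p the closest were miR-34a-5p, miR-26b-5p and miR-30e-3p (0.24, 0.26 and 0.33). For miR-222-3p they were miR-467a-5p, miR-10b-5p and miR-92a-3p (0.41, 0.42 and 0.44). The SD between miR-221-3p and miR-222-3p was 0.77, with medians of 0.63 from miR-221-3p and 0.83 from miR-222-3p. From miR-221-3p, 115 of the 156 lay closer than miR-222-3p, and from miR-222-3p, 56 lay closer than miR-221-3p. This measure favours abundant miRNAs, whose counting error is small, and the low counts of miR-222-3p enlarge its distances.

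Variation between libraries differed among the members. In control the coefficient of variation of CPM was 12.3% for miR-126a-3p, 32.3% for miR-126a-5p, 29.5% for miR-221-3p and 36.9% for miR-222-3p, beside a median of 29.5% over all miRNAs tested. In the model group it was 23.6%, 20.2%, 24.3% and 58.7%, beside 28.9%.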

How the data were processed

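Small RNA of heart vesicles was sequenced in 10 libraries. The authors deposited raw read counts per mature miRNA and, per the file headers, another value with no unit, taken here as RPM because count divided by value was 1 constant per library. Per the submitters' processing notes, reads were placed on GRCm38.p6. The sources used here do not state the aligner, the counting tool, the use of strand or the treatment of shared reads. Group averages in the table were not used.

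Libraries were grouped by the treatment label. Replicate numbers follow accession order and pair nothing, and p-values measure the spread between libraries, which may be technical. Counts were tested with edgeR 4.0.16 in R 4.3.3, using TMM, the default filter and a robust quasi-likelihood fit. The filter kept 177 miRNAs with 99.7% of counts. SE is the log2 difference over the square root of F. Arm ratios were fitted with limma 3.58.1, and DESeq2 1.42.0 was an alternative. Exact permutation tests, two-sided, were run on the 3 ratios (SciPy 1.17.1). The fits were also run on simulated data, whose outcome is not given here and lends no support to the results. Sequences came from RefSeq (GRCm38.p6) and loci from GENCODE M21.

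Members, lists and tests were chosen with earlier results of these data known. Named miRNAs were the 7 rows, the 3 closest to each tested member, the 3 smallest p among arm ratios, the 4 most abundant of the endothelial list and the most abundant of each marker list; others are marked in the text. Alternatives covered normalization, filter, tool, removal of miR-1a-3p, added counts, each library left out and, chosen after seeing the data, adjustment without the ratio to miR-1a-3p.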

Additional observations from a re-analysis of the deposited data

Results flagged for a closer look

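Within HFD plus L-NAME, library 4 stood apart from the other 4 libraries in miR-126a-5p, with 2943 CPM where the others held 1818 to 2095 CPM. In groups of 5, chance marks about 1 group in 20 in this way, and 14 groups (7 measures in 2 groups) were examined. Without this library the log2 difference of miR-126a-5p was 0.31 and its edgeR adjusted p 0.561.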

How the results depend on the processing

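The number of miRNAs called by edgeR was 0 with TMM, with DESeq2 size factors, with miRNA totals, with read totals and without miR-1a-3p. It was 1 without a filter on low counts, 3 with DESeq2's Wald test, and 0 to 1 with a library left out; no member was among these calls. At an unadjusted p under 0.05 there were 68 miRNAs without a filter, where 733 were tested, and 17 to 34 with a library left out. In the fit over all precursors, limma and diffSpliceDGE called 0 arm ratios under every alternative run, with 0 to 4 at an unadjusted p under 0.05 by limma with a library left out. In the exact tests on the 3 ratios, the adjusted p of the miR-126a arm ratio ran from 0.0476 to 0.119 and that of miR-221-3p to miR-222-3p from 0.0476 to 0.238 with a library left out. Adjusted over the 2 ratios other than that to miR-1a-3p, chosen after seeing the data, they were 0.0794 and 0.119. The miR-126a arm ratio difference lay between 0.66 and 0.97 with a library left out, that of miR-221-3p to miR-222-3p between 0.52 and 1.00, and that of miR-126a-3p to miR-1a-3p between -0.99 and -0.60. With 5 added to counts the miR-221-3p to miR-222-3p difference was 0.46.

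Of the tested members, miR-126a-3p and miR-222-3p stayed lower and miR-126a-5p higher in all 17 alternatives, with 0 calls. The log2 difference of miR-221-3p reversed to 0.0030 without a filter and to 0.073 without miR-1a-3p, and ranged from -0.20 to 0.19 with a library left out. The median of all miRNAs moved to 0.12 without miR-1a-3p and to 0.11 without a filter. The cause of these shifts was not tested. Leaving out control 3 put miR-126a-3p at -0.13 and the median of all miRNAs at 0.12. Relative to the median, miR-126a-3p was then at -0.25, beside -0.30 with all libraries. No paired analysis was possible because the labels give the libraries no shared replicate numbers. Depth limits miR-222-3p most.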
